A study of Mus musculus with 28 samples.

Results

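Genes that make sterols and fatty acids were examined in mouse motor cortex, in microglial translating RNA and in total lysate of the same animals. The genes were chosen by name, as 33 symbols out of the 24391 in the deposited count table. All 33 symbols were in the table, and 32 had counts. They comprised 18 sterol synthesis enzymes, 6 regulators and carriers of sterols, and 9 enzymes that make, lengthen or desaturate fatty acids.

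The tissue came from 14 mice of the genotype Cx3CR1-Cre/TRAPfl, in which Cre driven by the Cx3cr1 promoter switches on a ribosome tag. In translating ribosome affinity purification (TRAP), tagged ribosomes are pulled from a lysate together with the mRNA they carry. Each mouse gave 1 TRAP and 1 total lysate library, so there were 28 libraries. Of the mice, 7 stayed in the home cage and 7 were taken after a rotarod run of 1 h. The labels put 4 females and 3 males in each condition, with 4 mice of cohort 1 and 3 of cohort 2. The labels give no age, and both conditions carried the transgenes. The labels name microglia as the cell type of every library, total lysate included. TRAP from mice without the tag was not analysed here.

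Total counts ran from 70090518 to 241381845 per library. Marker genes were used to check the fractions: 10 of 10 microglial markers were higher in TRAP (median log2 fold 6.42), and 6 of 6 markers of border macrophages, which also use the Cx3cr1 promoter, were higher as well (6.20). All 10 endothelial markers were also higher in TRAP (1.90). In contrast, 10 of 10 neuronal (-1.49), 9 of 10 astrocyte (-0.87) and 9 of 10 oligodendrocyte markers (-1.46) were lower, but none was at 0. Sex-linked transcripts went against the label in 2 run mice of cohort 2, in 4 libraries.

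Cells build cholesterol from acetyl-CoA through mevalonate and squalene, then close the sterol ring and trim it in a long series of steps. The membrane-bound factors encoded by Srebf1 and Srebf2 switch these genes on when sterol is scarce, after Scap escorts them out of the endoplasmic reticulum, where Insig proteins otherwise hold them. In the brain, cholesterol does not come from blood, and astrocytes and myelinating oligodendrocytes are known as major producers.

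Levels were set side by side as CPM (counts scaled to library size by TMM) per kb of exon, since longer genes collect more reads. Exon lengths were those of all annotated transcripts together, which lowers the value of genes with long, little-used exons. In lysate the highest member was Scd2, the main stearoyl-CoA desaturase of brain, at 121 CPM per kb (median of 14 libraries, 111 to 134). Msmo1, which oxidises methyl groups of the sterol ring, had 47.4 over all libraries, with 47 to 53.4 in cohort 1 and 12.8 to 22.8 in cohort 2. Fads1, a desaturase of polyunsaturated fatty acids, had 36.7 over all, with 31.5 to 37.2 in cohort 1 and 40.7 to 47 in cohort 2. Msmo1 thus lay above Fads1 in cohort 1 and below it in cohort 2, and Scd2 lay above both in each cohort.

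In TRAP, Scd2 had 102 CPM per kb over all libraries, with 99 to 157 in cohort 1 and 35.4 to 67.5 in cohort 2. Ebp, the isomerase that moves a double bond within the sterol ring, had 46.7 over all, with 27.5 to 47.9 in cohort 1 and 54.3 to 71 in cohort 2. Scd2 lay above Ebp in cohort 1, and in cohort 2 their ranges overlapped, with medians of 55.8 and 62. In lysate Ebp had 12.4 (10.4 to 14.3). Idi1, which isomerises the activated isoprene unit, had 0.441 in TRAP (0.129 to 2.46). Acaca, the carboxylase that commits acetyl-CoA to fatty acids, had the lowest median above 0 in both fractions over all libraries, at 0.435 in TRAP and 0.537 in lysate. Neighbours in these orders mostly overlapped in range.

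**Figure D1:**
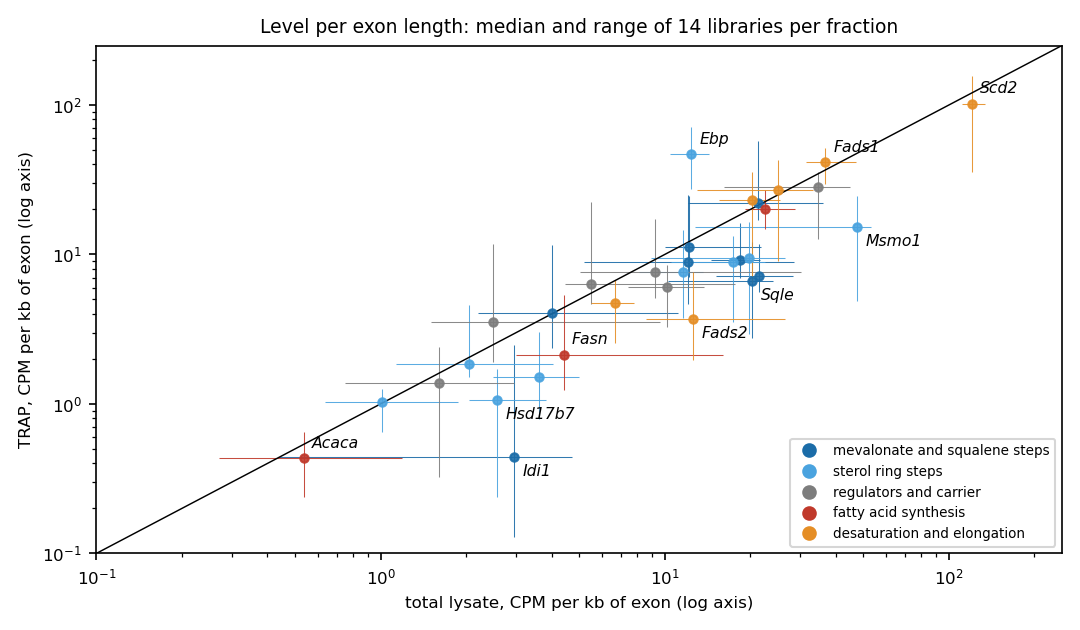
Level of 32 members in total lysate (x) and TRAP (y), in CPM per kb of exon on log axes. Points are medians and lines the full range of 14 libraries per fraction, the diagonal marks equal levels, and colours give the step: dark blue for mevalonate and squalene, light blue for the sterol ring, grey for regulators, red for fatty acid synthesis and orange for desaturation and elongation. Ebp lies above the diagonal at 46.7 in TRAP against 12.4 in lysate, and Idi1, Fads2 and Hsd17b7 lie below it.

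Hmgcs1, the synthase that makes HMG-CoA, was listed at 0 in all 28 libraries, where a count of 0 allows up to 3 counts, or 0.0428 CPM in the smallest library and 0.0124 CPM in the largest. Those limits cover counting error only. In GENCODE M21, 557 of its 4594 exon bases overlap the antisense gene Gm48342. No change of Hmgcs1 could be tested, and a listing at 0 does not show that the gene is silent here.

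Most of the genes were lower in microglial TRAP than in lysate. Of 32 tested, 23 were called lower and 4 higher, with edgeR's quasi-likelihood test at a Benjamini-Hochberg adjusted p under 0.05. Among all 16716 genes tested, 40.1% were called lower and 34.0% higher, with a median log2 fold of -0.20. The members' median was -0.47. By step, 13 of 17 sterol enzymes were lower and 2 higher (median -0.87), 4 of 6 regulators were lower and 2 higher (-0.38), and 6 of 9 fatty acid enzymes were lower and none higher (-0.46). With scaling by total counts alone, which moved the median of all genes to -0.71, the split of the members became 30 lower and 1 higher. For all genes that split was 9488 lower and 3903 higher, against 6698 and 5679 with TMM scaling. In bulk RNA of this kind, fewer cells of a type and less RNA per cell cannot be told apart. The p-values measure the spread of libraries around a fit with the group and 1 cohort term shared by both fractions. A difference of the TRAP over lysate ratio between cohorts adds to that spread. The TRAP and lysate libraries of a mouse were not paired. The medians of neuronal, astrocyte and oligodendrocyte markers (-1.49, -0.87 and -1.46) lay among the values of the lower members, which ran from -2.15 to -0.22, and the part of those cells in them was not tested.

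Ebp was the member that stood above lysate throughout. Its TRAP CPM ran from 63.5 to 164 (median 108, n = 14), and its lysate CPM from 24 to 33 (median 28.6). The fractions did not overlap, and TRAP exceeded lysate in 14 of 14 mice, by a log2 ratio between 1.11 and 2.53. The fitted log2 fold was 1.99 ± 0.09 (SE), or 3.98-fold (edgeR, adjusted p = 3.09e-18). Ebp lies on the X chromosome at 8185329-8193512 (GRCm38), with no exon shared with another gene and no 50-base stretch found in another transcript. A ratio above 0 in every mouse was seen in 22.1% of all genes, and TRAP CPM above every lysate CPM in 11.9%. The median of endothelial markers was 1.90, and those of microglia and border macrophages were 6.42 and 6.20. The part of these cell types in the Ebp value was not tested.

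Several early steps of sterol synthesis lay on the other side. Idi1 ran from 0.451 to 8.62 CPM in TRAP (median 1.55) and from 1.53 to 16.5 in lysate (median 10.4). It was lower in TRAP in 14 of 14 mice, although the ranges overlapped, and its log2 fold was -2.15 ± 0.24 (edgeR, adjusted p = 3.12e-09). Fdft1, squalene synthase, had 23.7 to 49.8 CPM in TRAP (median 30.2) against 63.8 to 120 in lysate (median 90.5), without overlap. Its log2 fold was -1.50 ± 0.09 (edgeR, adjusted p = 4e-15). Sqle, squalene epoxidase, had 15.2 to 66.9 CPM in TRAP (median 36.7) and 57.3 to 133 in lysate (median 113), which overlapped. It fell in every mouse, with a log2 fold of -1.43 ± 0.11 (edgeR, adjusted p = 4.25e-13). Acat2, the cytosolic thiolase that joins acetyl-CoA units, was lower by less, at -0.87 ± 0.09.

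The kinases and the decarboxylase of mevalonate differed little between fractions. Mvk, mevalonate kinase, had a log2 fold of -0.05 ± 0.11 and was not called. Pmvk, phosphomevalonate kinase, was 0.23 ± 0.09 (edgeR, adjusted p = 0.0223). Mvd, the decarboxylase, was -0.31 ± 0.12 (adjusted p = 0.025) and Fdps, farnesyl diphosphate synthase, -0.28 ± 0.10 (0.0126), both by edgeR. The Mvd call was lost in each cohort alone (-0.38 and -0.22), in each condition alone, and on leaving out any of 5 single mice (-0.29 to -0.23), 3 from home cage (Male1 of cohort 2, Male1 and Male2 of cohort 1) and 2 run (Female1 and Female2 of cohort 1). Fdps lost its call in cohort 2 alone (-0.28, edgeR, adjusted p = 0.149) and in home cage mice alone (-0.24). The call for Pmvk was lost with RLE size factors (0.19, adjusted p = 0.0586) and turned to -0.29 with total counts. It was also lost with DESeq2 (0.19), in each cohort alone (0.20 and 0.28) and in run mice alone (0.10). Leaving out the 2 run mice with sex markers against the label (0.14) or some single mice lost it too. The 8 measured genes of this stretch thus ran from -2.15 to 0.23.

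In the ring steps, 7 of 9 genes were lower. Hsd17b7, a ketosteroid reductase of the pathway, had 1.21 to 8.74 CPM in TRAP (median 5.41) and 10.5 to 19.5 in lysate (median 13.1). The ranges did not overlap, and the log2 fold was -1.43 ± 0.20 (edgeR, adjusted p = 1.47e-07). Msmo1 had 30 to 151 CPM in TRAP (median 93.1) and 78.4 to 328 in lysate (median 291). It was lower in all 14 mice, with a log2 fold of -1.34 ± 0.11 (edgeR, adjusted p = 1.51e-12). The lanosterol demethylase Cyp51 (-1.02), the sterol reductase Tm7sf2 (-1.16) and the sterol desaturase Sc5d (-1.11) lay close together, each below lysate in 14 of 14 mice. Nsdhl, which removes a ring carboxyl group, was -0.55 and Lss, which closes the ring, -0.36, and in cohort 1 alone neither was called (-0.23 and -0.17). Lss also lost its call in home cage mice alone (-0.30). Dhcr7, the reductase at the end of 1 branch, was 0.01 ± 0.09 (95% interval -0.18 to 0.20) and was not called.

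Each mouse was also read on its own, as the log2 of TRAP over lysate CPM with 0.5 CPM added to both. In this reading 13 members were below lysate in all 14 mice, against 19.1% of all genes, and 9 of the 13 were sterol enzymes. The others were Insig1, Fasn, Elovl6 and Fads2. Ebp was the single member above lysate in every mouse, and 18 had mice on both sides. TRAP CPM lay below every lysate CPM for 3 members, Fdft1, Hsd17b7 and Fads2, against 4.40% of all genes.

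**Figure D2:**
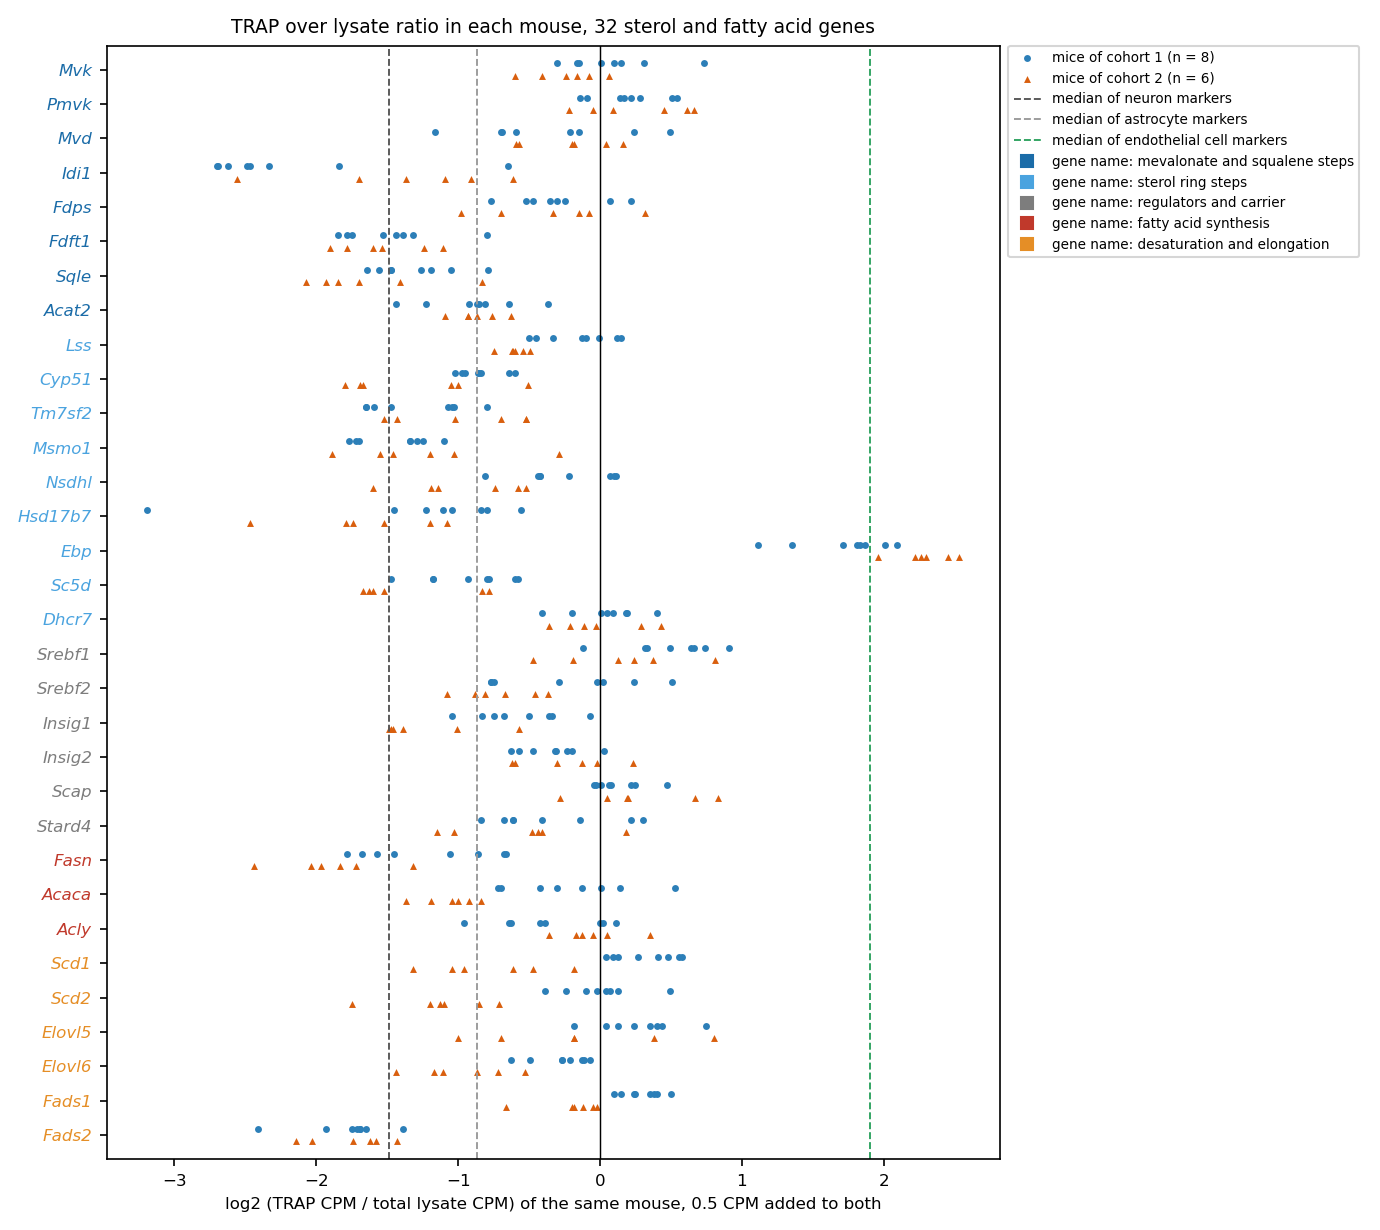
Log2 of TRAP over lysate CPM (x, with 0.5 CPM added to both) of 32 members (rows), 1 point per mouse, circles for 8 mice of cohort 1 and triangles for 6 of cohort 2. Gene names are coloured by step, and dashed lines mark the fitted medians of neuronal (-1.49), astrocyte (-0.87) and endothelial (1.90) markers. Ebp sits between 1.11 and 2.53 in all mice, and Scd1, Scd2 and Fads1 split by cohort.

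The start regions of the genes were read to see which letters the members share, with sterol enzymes, regulators and fatty acid enzymes apart. RefSeq (GRCm38.p6) gave windows for 26 members, counted here as the 250 bases before each annotated start. The letters CCAAT on either strand, the box bound by NF-Y, a known partner of sterol-responsive factors, were found in a window of 14 of 15 sterol enzyme genes (93.3%). They were found in 2 of 6 fatty acid enzyme genes, Fasn and Elovl5, and in 4 of 5 regulators. The only window of Acaca lies inside the annotated gene, and that of Fads2 lies mostly inside it. Lack of the box there does not describe the bases before the gene's first start. The same limit holds for some sterol enzyme genes with the box. The window of Tm7sf2 lies inside its annotated gene and that of Msmo1 mostly so. Dhcr7 had the box only in a window inside its gene, and its other windows held none. No window was given for Fdft1, Sqle, Fdps, Scd1, Scd2, Fads1 and Stard4. Of 17215 genes of the count table with a window, 39% held CCAAT. Per window the figures were 77.8% for sterol enzymes and 35.1% for the table, since a gene can have several starts. CACGTG, the E-box letters, were in 6 of 26 members (23.1%) against 7.8% of the genes in the table. CACGTG reads the same on both strands. The sterol regulatory element, searched in 1 spelling on both strands, was in 0 of 26 members and in 0.0871% of the genes in the table. A match is a description of the window and not a bound site.

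Printed here are the windows of Ebp, the member with the highest TRAP over lysate fold, and of 3 sterol genes that were lower. Those of 2 fatty acid genes that were lower follow, 1 with the box and 1 without. Ebp is at chrX:8193513-8193762, Idi1 at chr13:8885356-8885605, Hsd17b7 at chr1:169969206-169969455, Msmo1 at chr8:64733579-64733828, Fasn at chr11:120824548-120824797 and Fads2 at chr19:10101504-10101753. Idi1 is on the plus strand and the others are on the minus strand. Each is written 5′ to 3′ toward the start, and capitals mark CCAAT or its reverse complement ATTGG.
Ebp: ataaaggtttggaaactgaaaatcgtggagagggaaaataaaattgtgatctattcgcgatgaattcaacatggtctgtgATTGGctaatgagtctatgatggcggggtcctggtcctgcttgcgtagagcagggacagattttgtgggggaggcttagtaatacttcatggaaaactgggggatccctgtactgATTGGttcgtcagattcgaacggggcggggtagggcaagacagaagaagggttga
Idi1: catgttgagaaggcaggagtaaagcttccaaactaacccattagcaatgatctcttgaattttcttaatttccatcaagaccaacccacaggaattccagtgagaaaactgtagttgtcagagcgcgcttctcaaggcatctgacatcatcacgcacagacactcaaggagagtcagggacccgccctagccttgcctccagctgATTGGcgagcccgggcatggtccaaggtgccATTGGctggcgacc
Hsd17b7: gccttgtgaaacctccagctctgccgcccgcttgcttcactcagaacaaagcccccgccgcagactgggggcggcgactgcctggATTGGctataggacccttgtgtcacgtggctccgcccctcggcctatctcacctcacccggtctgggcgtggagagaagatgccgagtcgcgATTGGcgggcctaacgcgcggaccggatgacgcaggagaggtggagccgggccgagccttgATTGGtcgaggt
Msmo1: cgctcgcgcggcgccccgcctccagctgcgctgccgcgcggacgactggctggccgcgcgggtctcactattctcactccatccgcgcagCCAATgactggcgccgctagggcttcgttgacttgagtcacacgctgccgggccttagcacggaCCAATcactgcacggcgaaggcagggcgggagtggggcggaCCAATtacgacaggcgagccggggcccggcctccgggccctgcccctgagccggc
Fasn: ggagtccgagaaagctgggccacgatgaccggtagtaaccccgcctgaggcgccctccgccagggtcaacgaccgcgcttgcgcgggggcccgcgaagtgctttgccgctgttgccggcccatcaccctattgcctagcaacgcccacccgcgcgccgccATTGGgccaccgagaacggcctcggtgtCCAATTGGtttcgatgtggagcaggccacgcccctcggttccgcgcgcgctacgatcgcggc
Fads2: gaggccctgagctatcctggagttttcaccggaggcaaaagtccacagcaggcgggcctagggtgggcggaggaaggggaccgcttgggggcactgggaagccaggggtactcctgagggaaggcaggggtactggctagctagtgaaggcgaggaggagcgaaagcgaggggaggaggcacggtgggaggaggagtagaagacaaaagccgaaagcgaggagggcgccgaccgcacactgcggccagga
Ebp and Idi1, which lie at opposite ends of the TRAP over lysate order, both hold 2 boxes in reverse orientation. The nearest box begins 55 bases before the start in Ebp and 14 in Idi1. Hsd17b7 holds 3 reverse boxes and Msmo1 3 forward ones. Fasn holds 3, 2 of which share letters. Fads2 holds none, in a window that lies mostly inside its annotated gene.

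Among the regulators, Insig1 had the largest TRAP over lysate difference. Srebf1, whose product mainly drives fatty acid genes, had 10.8 to 65.7 CPM in TRAP (median 20) and 8.51 to 54.1 in lysate (median 14). The ranges overlapped, and the log2 fold was 0.36 ± 0.12 (edgeR, adjusted p = 0.00975). Srebf2, whose product mainly drives sterol genes, was -0.45 ± 0.11 (adjusted p = 0.000333, edgeR), and -0.26 and not called in cohort 1 alone. Scap was 0.19 ± 0.08 (adjusted p = 0.022, edgeR), and with each mouse as a block that call was lost (0.19, adjusted p = 0.0609). The Scap call was also lost with RLE size factors (0.15) and with DESeq2 (0.15). Leaving out the 2 run mice with sex markers against the label (0.13) or some single mice lost it too. Without the 2 mice whose sex markers went against the label, Srebf1 was 0.30 (edgeR, adjusted p = 0.0553), and with total counts Srebf1 was -0.16 and Scap -0.32. Srebf1 was not called in cohort 2 alone (0.17), in home cage mice alone (0.42) or in run mice alone (0.23). Scap was not called in either cohort alone (0.13 and 0.28) or in either condition alone (0.16 and 0.15). Insig1, which encodes an anchor of the Scap complex, was lower at -0.87 ± 0.12 (edgeR, adjusted p = 7.46e-08), in 14 of 14 mice. Its relative Insig2 was -0.30 ± 0.08, and Stard4, which carries cholesterol between membranes, -0.47 ± 0.15. Insig2 was not called in cohort 2 alone (-0.24), and Stard4 in neither cohort alone (-0.38 and -0.59). Stard4 also lost its call in run mice alone (-0.44).

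Of the enzymes that make fatty acids, Fasn, the synthase itself, showed the largest difference. It had 13.5 to 58.7 CPM in TRAP (median 23.4) and 32.8 to 176 in lysate (median 48.3). The ranges overlapped across cohorts, yet TRAP was below lysate in 14 of 14 mice. Its log2 fold was -1.50 ± 0.12 (edgeR, adjusted p = 1.45e-12). Acaca was -0.59 ± 0.15 and Acly, which releases cytosolic acetyl-CoA from citrate, -0.22 ± 0.08. All 3 were called lower over both cohorts. In cohort 1 alone Acaca was -0.20 (edgeR, adjusted p = 0.388) and in cohort 2 alone Acly was -0.04 (0.735), and neither was called there. Without home cage Female1 of cohort 1, Acly was -0.17 (edgeR, adjusted p = 0.0565), and in run mice alone it was -0.19 and not called.

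Desaturases and elongases were divided. Fads2, the first desaturase of polyunsaturated fatty acid synthesis, had 6.48 to 25.2 CPM in TRAP (median 12.1) and 28.4 to 87 in lysate (median 41.5). These did not overlap, and the log2 fold was -1.80 ± 0.09 (edgeR, adjusted p = 1.09e-17). Fads1, which acts later in that route, had 143 to 246 CPM in TRAP (median 198) and 152 to 226 in lysate (median 177), and its log2 fold was 0.09 ± 0.07 (95% interval -0.07 to 0.24). The 2 desaturases, both on chromosome 19, thus had intervals that lay apart, since that of Fads2 was -1.98 to -1.62, and the difference itself was not tested. Elovl6, which lengthens saturated chains, was lower at -0.57 ± 0.10. Elovl5, which lengthens polyunsaturated chains, was 0.12 ± 0.12 and not called. Scd2 was lower at -0.46 ± 0.13 and Scd1, its close relative, was -0.12 ± 0.14 and not called.

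Counts of several members can include reads of other genes, since the strand setting is not given in the sources used here. Fdft1 shares 774 exon bases with Ctsb on the opposite strand, and 26.5% of its 50-base stretches occur in other transcripts. For Fdps the latter share was 26.2%, for Idi1 25.3%, for Acaca 30.4% and for Acat2 39.1%, mostly from Acat3. Tm7sf2 shares 532 exon bases with Vps51 on the same strand, and Scap 985 with a transcript on the opposite strand. Values of these genes are therefore uncertain. The share was 4.56% for Scd1 and 3.97% for Scd2, part of it between the 2.

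Genes around the pathway were read against the shares of all genes, 34.0% higher and 40.1% lower in TRAP, and the lists were not tested against each other. Of 22 genes of sterol uptake, transport and turnover, 12 were higher and 7 lower in TRAP (median log2 fold 1.39). Higher were Mylip, which marks lipoprotein receptors for degradation (3.83), Npc2, a lysosomal cholesterol carrier (3.67), and Abca1, a cholesterol exporter (3.64). Lower were the neuronal cholesterol hydroxylase Cyp46a1 (-1.60), Cyp7b1, an oxysterol hydroxylase (-1.36), and the lipoprotein receptor Vldlr (-1.36). Of 7 genes that process SREBP or degrade sterol enzymes, 5 were higher and none lower (0.56). Among them, though not the highest, were the protease Mbtps1 (0.80) and the ligase Rnf139 (0.60), and the list ran up to 1.08. Of 8 genes of the isoprenoid branch, 5 were lower and 1 higher (-0.79). The prenyl chain synthases Pdss2 (-1.31) and Pdss1 (-1.27) were lowest and the prenyltransferase subunit Fnta (1.05) was highest. Of 27 other genes of fatty acid supply and remodelling, 14 were lower and 9 higher (-0.63). The transcription factor genes Mlxipl (6.01) and Mlxip (2.31) and the elongase Elovl1 (2.29) were the highest of these. The acyl-CoA synthetase Acsl3 (-1.74), the acetyl-CoA synthetase Acss2 (-1.72) and the hydroxylase Fa2h (-1.72) were the lowest.

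After 1 h of running, no member was detectably different from home cage in either fraction. In TRAP 0 of 32 were called by edgeR, against 0.0460% of all genes tested, and 0 of 32 had an unadjusted p under 0.05, as 540 of all 15203 genes did. Their log2 folds of run over home cage ran from -0.28 for Lss to 0.59 for Idi1, with a median of 0.02, against 0.00 for all genes. In lysate 0 of 32 were called, against 0.0311% of all genes, and 1 had an unadjusted p under 0.05, as 1192 of all 16091 genes did. The range was -0.16 to 0.26, with a median of 0.02. DESeq2 also called 0 members in both fractions. Sterol enzymes had a median of -0.02 in TRAP and 0.03 in lysate, and fatty acid enzymes 0.07 and -0.04. No marker of the 8 cell types was called in either fraction. Endothelial markers had a median of -0.33 in TRAP and -0.31 in lysate.

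The member with an unadjusted p under 0.05 was Pmvk in lysate. Home cage mice had 20.7 to 58.1 CPM (median 30.1, n = 7) and run mice 28.7 to 61.8 (median 41, n = 7), with wide overlap. The log2 fold was 0.26 ± 0.11 (edgeR, adjusted p = 0.661). Ebp in TRAP had 87.4 to 144 CPM at home (median 111) and 63.5 to 164 after running (median 105), a log2 fold of -0.12 ± 0.12. Its 95% interval was -0.37 to 0.13. Scd2 in TRAP had 287 to 770 CPM at home (median 541) and 193 to 856 after running (median 576), a log2 fold of -0.04 with an interval of -0.34 to 0.25.

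Idi1 in TRAP had the widest interval, -0.41 to 1.58. Home cage mice had 0.589 to 2.13 CPM (median 1.49) and run mice 0.451 to 8.62 (median 1.6). The 8.62 came from 1 female of cohort 1, and without that mouse the log2 fold went from 0.59 to 0.08. For Fasn, home cage TRAP had 14.1 to 46.3 CPM (median 24.1) and run TRAP 13.5 to 58.7 (median 22.8), a log2 fold of 0.07 ± 0.17. The intervals bound what these mice could show. On simulated counts for the 15203 genes of the TRAP comparison, 66% of 2-fold changes and 16% of 1.5-fold changes were called. For the 16091 genes of the lysate comparison the shares were 74% and 52%. Each simulation changed 200 genes drawn at random, 50 at each fold size, and put in no difference between cohorts. The data had 7 calls in TRAP and 5 in lysate. Fewer changed genes make the adjusted threshold stricter, so these shares can be too high for the members.

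**Figure D3:**
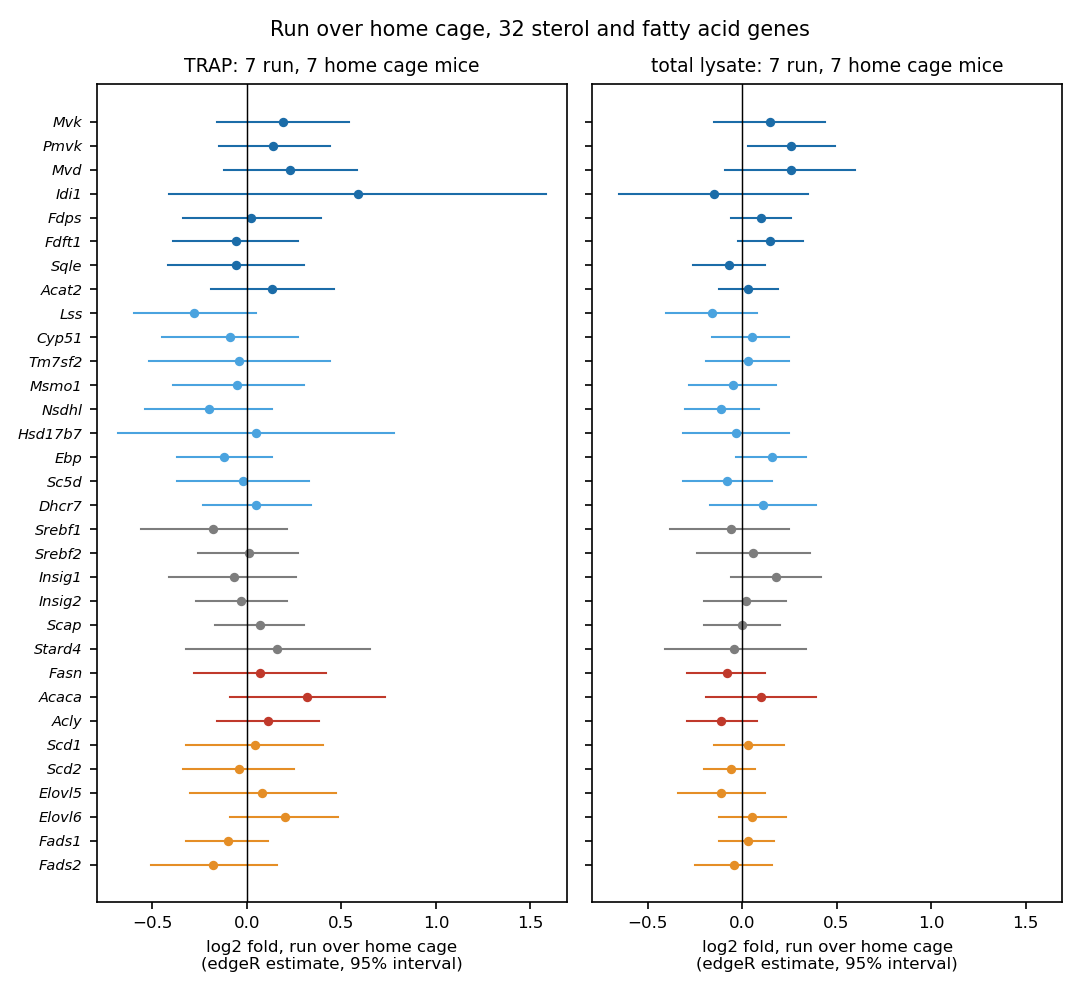
Log2 fold of run over home cage (x) for 32 members (rows) in TRAP, left, and total lysate, right, 7 mice per condition. Points are edgeR estimates and lines 95% intervals, in the colours of the pathway steps used above. The intervals of all members include 0 except that of Pmvk in lysate, and that of Idi1 in TRAP reaches 1.58.

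The run effect was then compared between fractions and between cohorts. The run effect in TRAP minus that in lysate was called for 0 of 32 members (edgeR), as for 0% of all genes tested. No member had an unadjusted p under 0.05 in this test, and 655 of all genes did. The difference of the run effect between cohorts was called for 0 members in TRAP and 0 in lysate, again with 0% of all genes called and 0 members under an unadjusted p of 0.05. DESeq2 called 0 members in these 3 tests. Within cohorts, 13 of 32 members had the same sign of run effect in both cohorts in TRAP, and 16 of 32 in lysate. The largest effect in TRAP was 1.11 in size in cohort 1, that of Idi1, and 0.55 in cohort 2.

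The cohorts themselves differed in the level of many members. In lysate, 15 of 32 members had CPM in cohort 2 above every value of cohort 1, against 26.4% of all genes, and 9 had CPM below, against 20.8%. In TRAP the counts were 10 above, against 20.7%, and 12 below, against 17.1%. Srebf1 in lysate had 8.51 to 14.2 CPM in 8 mice of cohort 1 and 33.5 to 54.1 in 6 mice of cohort 2, or 3.88-fold higher. Idi1 in lysate had 9.54 to 16.5 CPM in cohort 1 and 1.53 to 5.93 in cohort 2, or 3.9-fold lower. These levels moved with base composition: over 32 members, the log2 difference between cohorts correlated with the GC content of the transcripts at r = 0.88 in lysate and 0.88 in TRAP. Over 16047 genes the values were 0.77 and 0.72. All points share the same libraries, so the correlation is a description only, and the part of GC content in these differences was not tested. Lysate totals were 70090518 to 121179170 in cohort 1 and 155554001 to 179477632 in cohort 2. The fits carried cohort as a term.

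The TRAP over lysate ratio also differed between cohorts for 9 members, 6 of them fatty acid enzymes. Of 32 members, 8 had a lower ratio in cohort 2 and 1 a higher one (edgeR, adjusted p under 0.05), against 11.4% and 7.52% of all genes tested. Among fatty acid enzymes 6 of 9 were lower, with a median difference of -0.67. Among sterol enzymes 1 of 17 was lower and 1 higher (median -0.03), and among regulators 1 of 6 was lower. The median of all genes was -0.06. With total counts, which moved that median to -0.38, the split was 16 lower and 0 higher for members and 4066 and 355 for all genes, against 2008 and 1325.

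Scd2 had the largest difference. In lysate it had 608 to 733 CPM in cohort 1 (median 683) and 604 to 680 in cohort 2 (median 644), which overlapped. In TRAP it had 541 to 856 CPM in cohort 1 (median 682) and 193 to 369 in cohort 2 (median 305), without overlap. The log2 ratio was 0.01 ± 0.09 in cohort 1 and -1.10 ± 0.13 in cohort 2, and the difference was -1.12 ± 0.16 (edgeR, adjusted p = 3.06e-05). Scd1 had 107 to 173 CPM in TRAP of cohort 1 and 31.7 to 71.7 in cohort 2, with 89.6 to 124 and 75.6 to 97 in lysate. Its ratio was called higher in cohort 1 (0.33 ± 0.10) and lower in cohort 2 (-0.72 ± 0.17), a difference of -1.06 ± 0.19 (edgeR, adjusted p = 0.000375). The value of -0.12 over both cohorts is thus a mean of opposite signs.

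The others with a lower ratio in cohort 2 were Acaca (-0.91), Nsdhl (-0.75), Elovl6 (-0.72), Fasn (-0.67), Insig1 (-0.66) and Fads1 (-0.51). Fads1 was 0.30 in cohort 1 and -0.20 in cohort 2. Ebp moved the other way, from 1.75 ± 0.10 in cohort 1 to 2.31 ± 0.11 in cohort 2, a difference of 0.55 ± 0.14 (edgeR, adjusted p = 0.00834). Its TRAP CPM was 63.5 to 111 in cohort 1 and 125 to 164 in cohort 2, and its lysate CPM was 24 to 30.9 and 24.1 to 33. Without the 2 mice whose sex markers went against the label, the Ebp difference was 0.31 (adjusted p = 0.372) and those of Nsdhl (-0.65) and Acaca (-0.96) also missed the threshold. With total counts the Ebp difference was 0.22 (adjusted p = 0.253). With an offset for GC content, Fasn was -0.48 (adjusted p = 0.065). These alternatives used edgeR as well.

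Marker genes moved along with these ratios. Neuronal markers were lower in cohort 2 for 9 of 10 (median difference -0.96), astrocyte markers for 6 of 10 (-0.65), oligodendrocyte markers for 3 of 10 (-0.47) and markers of their precursors for 4 of 6 (-1.42, with 1 higher). Of the 10 microglial markers 3 were higher (0.40), as were 1 of 10 endothelial (0.40), 1 of 7 mural (0.21) and 1 of 6 border macrophage markers (0.44). The summed microglial markers in TRAP were 16400 to 29000 CPM in cohort 1 and 31700 to 34900 in cohort 2. The summed neuronal markers were 4900 to 8640 and 2020 to 2730 CPM, and those of astrocytes 2530 to 3380 and 1710 to 2190 CPM. Summed endothelial markers in TRAP were 165 to 348 CPM in cohort 1 and 571 to 781 in cohort 2, and mural markers 55.3 to 117 and 117 to 240. In lysate, too, both were higher in cohort 2, at 45.7 to 85.7 and 103 to 124 for endothelial and 36.1 to 47.5 and 65.8 to 86 for mural markers. Neuronal markers in lysate were lower in cohort 2 (8310 to 12300 CPM) than in cohort 1 (14100 to 17600). Precursor markers in lysate were higher (162 to 199 against 79.4 to 118). Astrocyte markers in lysate overlapped between cohorts (3670 to 4200 in cohort 1, 3660 to 4020 in cohort 2). No marker was at 0 in a whole group. The part of RNA from other cells in the members' TRAP values was not tested.

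**Figure D4:**
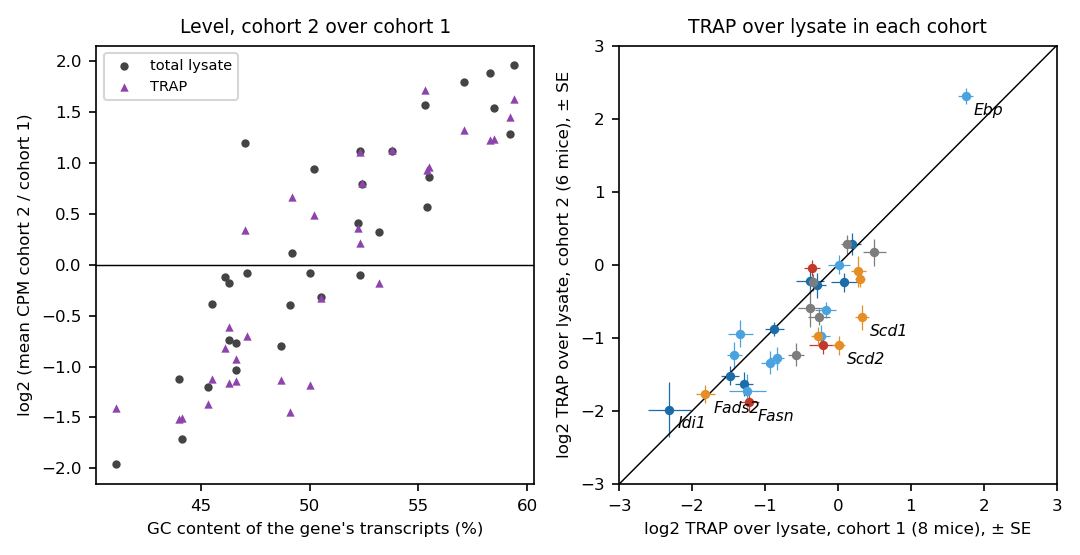
Left, log2 of the mean CPM in cohort 2 over cohort 1 (y) against GC content of the transcripts (x, percent) for 32 members, circles for lysate and triangles for TRAP. Right, log2 TRAP over lysate in cohort 1 (x) and cohort 2 (y) with SE, coloured by step as in the plot of levels per exon length. The left points rise with GC (r = 0.88 in each fraction), and on the right Scd1 and Scd2 lie below the diagonal and Ebp above it.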

How the data were processed

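The deposited table holds whole-number counts per gene symbol for each library. Per the labels' protocols, RNA was purified on RNeasy columns and made into Nextera XT libraries. Per the submitters' processing notes, STAR 2.7.7a, featureCounts and DESeq2 were used with GRCm38. For the gene annotation, the strand setting and reads that map to several places, the setting is not given in the sources used here. Columns without a cohort mark were taken as cohort 1.

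Counts were scaled by TMM, filtered with filterByExpr and tested with edgeR 4.0.16 (R 4.3.3) by quasi-likelihood F tests. P-values were adjusted by Benjamini-Hochberg over all genes tested, with a threshold of 0.05. TRAP and lysate were compared over all 28 libraries with condition and cohort as terms, run and home cage within a fraction. All 33 symbols were reported, and of each other list at most the 3 called genes that rose most and the 3 that fell most among those with a mean log2 CPM of 1 or more. The members and lists were chosen with earlier results of these data known. Fits were checked on simulated counts. GENCODE M21 gave exon lengths, and RefSeq the start regions.

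TRAP and lysate of a mouse share its name in the labels, which pairs them. The correlation of their deviations from group means ran from -0.30 to 0.26. The alternatives were RLE size factors, total counts, no filter, DESeq2 1.42.0, the mouse as a block, sex as a term, each cohort or condition alone, and leaving out each mouse. An offset for GC content was chosen after seeing the data. No 2 libraries of the same group of condition and fraction agreed within counting noise (lowest chi-square per degree of freedom 69.6). Libraries of different groups were not compared in this way.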

Additional observations from a re-analysis of the deposited data

Results flagged for a closer look

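In 3 of 128 groups of 7 libraries, 1 library lay far from the other 6, where a rate of 1 in 20 would give about 6.4 such groups. That rate is for values of 1 normal distribution. Each group here mixed both cohorts, whose levels often differed, so 3 and 6.4 cannot be set against each other. Acat2 had 41.1 CPM in run TRAP of 1 male of cohort 1, against 20.1 to 29 in the others, and without that mouse its run over home cage log2 fold went from 0.13 to 0.01. Hsd17b7 had 19.5 CPM in run lysate of another male of cohort 1, against 10.5 to 13.4, and the log2 fold went from -0.03 to -0.14. Idi1 had 8.62 CPM in run TRAP of a female of cohort 1, against 0.451 to 3.25, and the log2 fold went from 0.59 to 0.08.

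The TRAP over lysate log2 ratio differed between cohorts for 9 members by edgeR's test of that difference. Cohort 2 minus cohort 1 was -1.12 for Scd2, -1.06 for Scd1, -0.91 for Acaca, -0.75 for Nsdhl, -0.72 for Elovl6, -0.67 for Fasn, -0.66 for Insig1 and -0.51 for Fads1. Ebp had 0.55, the single positive value among the 9. The neuronal markers differed by a median of -0.96 in the same test, and their part in these values was not tested.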

How the results depend on the processing

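Of the TRAP over lysate calls, 14 members kept theirs under every alternative run, among them Ebp (1.47 to 2.31), Idi1 (-2.66 to -1.88) and Fads2 (-2.32 to -1.73). The number of members called higher (4) became 2 with RLE size factors, 1 with total counts, 2 with DESeq2, 2 without the 2 run mice whose sex markers went against the label, 1 in cohort 2 alone, 2 in home cage mice alone and 1 in run mice alone. Leaving out 1 mouse gave 1 to 4 higher and 22 to 23 lower. The count fell to 1 or 2 without home cage Female1 or Female2 of cohort 1, home cage Female2 of cohort 2, or run Male1 of cohort 2. Total counts turned Pmvk to -0.29, Dhcr7 to -0.50, Srebf1 to -0.16, Scap to -0.32, Elovl5 to -0.38 and Fads1 to -0.42. In cohort 1 alone, Scd1 was 0.33 and Scd2 0.01. The causes were not tested. With the mouse as a replicate block, 3 members were higher and 23 lower, and Scap was the one call that changed. In the run comparisons, a block on cohort, sex and number called 0 members.

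For the difference between cohorts, total counts gave 0 members higher and 16 lower, and leaving out the 2 mice gave 0 higher. Over all genes, run against home cage in TRAP gave 7 calls higher, and 40 higher and 12 lower with DESeq2. The 7 became 3 with the replicate block, 0 in each cohort alone, 3 without home cage Female1 of cohort 1, and 4 without home cage Male2 of cohort 1, run Male1 of cohort 2 or run Male1 of cohort 1. In lysate 5 became 33 and 18 with DESeq2, 9 with the GC offset, and 0 without the 2 mice, with the block and in each cohort alone. Leaving out any of 6 mice also gave 0 (home cage Female1 of either cohort and Male2 of cohort 1, run Female1 and Female2 of cohort 2 and Male2 of cohort 1), and other single mice gave 1 to 9. The test of run between fractions gave 34 and 15 with DESeq2 against 0, and that between cohorts 32 and 28 in TRAP and 5 and 2 in lysate, against 0. None of these calls was a member. With the difference between cohorts, 1325 genes higher became 2004 with DESeq2, 1995 with the GC offset and 245 without the 2 mice, and 2008 lower became 1176 without them. Few mice limit small changes. On simulated counts with 200 random genes changed at once, 36% of 2-fold differences between cohorts were recovered over 17612 genes.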
